A study of Homo sapiens with 8 samples.

Results

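The numbered zinc finger genes that lie away from chromosome 19 and the sex chromosomes were followed through 4 groups of U2OS libraries. They were taken as every gene in the deposited tables on a chromosome other than 19, X or Y whose symbol is ZNF, a number and at most 1 letter, which gave 251 of 19414 coding genes. The rule uses symbols and positions only, and this set was taken up with earlier results of these data known. The data are TT-seq libraries, in which RNA made during a short exposure of the cells to 4-thiouridine is sequenced, from U2OS, an established human osteosarcoma cell line. Each group holds 2 libraries. The group called WT below is labelled WT, Zab is labelled Zab, MYC is labelled as overexpressing MYC, and MYC_Zab carries both labels. The labels do not describe the construct behind Zab, the vector or promoter that drives MYC, or whether the lines are clones. They do not say that the 2 libraries of a group came from separate cultures, so the p-values speak only for the spread of these 2 libraries, and that spread may be technical. The series text names TT-seq of the same 4 conditions and spells Zab as Zαβ, the usual name of the paired domains of ADAR that bind left-handed Z-form nucleic acid.

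Most ZNF genes encode proteins with a row of C2H2 zinc fingers, short loops held by a zinc ion that read DNA bases, and many also carry a KRAB domain. A KRAB domain recruits the corepressor TRIM28, which brings the histone methyltransferase SETDB1 and heterochromatin proteins to the bound site, often a transposable element. The family has grown by tandem duplication, so many members sit side by side in arrays and resemble each other in sequence. Other members have no KRAB domain and act as activators, RNA-binding proteins, ribosome factors or ubiquitin and SUMO ligases. MYC is a transcription factor that binds the E-box CACGTG with its partner MAX. Runs of alternating C and G are among the sequences that most readily adopt the Z form of DNA.

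Promoters of 7 members are shown first, because the members that rose or fell in the libraries labelled Zab differed in the base composition of this window. Each is the 250 bases before the annotated start in GRCh38.p14, written 5′ to 3′ on the gene's strand, and capitals mark the run CGCGCG. ZNF664, ZNF70, ZNF768, ZNF853 and ZNF467 were higher in the libraries labelled Zab than in WT, and ZNF33A and ZNF33B, a duplicated pair, were lower. They were picked after their values and windows were seen: the first 4 are risers that hold the run, and ZNF467, which had the largest rise, does not. The windows are 12:123972965-123973214 on the plus strand for ZNF664, 22:23751113-23751362 on the minus strand for ZNF70, 16:30526567-30526816 on the minus strand for ZNF768, 7:6615360-6615609 on the plus strand for ZNF853, 7:149773589-149773838 on the minus strand for ZNF467, 10:38010425-38010674 on the plus strand for ZNF33A and 10:42638571-42638820 on the minus strand for ZNF33B.
ZNF664: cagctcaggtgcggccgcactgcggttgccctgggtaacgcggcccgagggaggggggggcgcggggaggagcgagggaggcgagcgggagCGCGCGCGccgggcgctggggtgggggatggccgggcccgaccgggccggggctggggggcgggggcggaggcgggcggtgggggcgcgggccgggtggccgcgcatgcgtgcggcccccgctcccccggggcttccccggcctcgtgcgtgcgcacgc
ZNF70: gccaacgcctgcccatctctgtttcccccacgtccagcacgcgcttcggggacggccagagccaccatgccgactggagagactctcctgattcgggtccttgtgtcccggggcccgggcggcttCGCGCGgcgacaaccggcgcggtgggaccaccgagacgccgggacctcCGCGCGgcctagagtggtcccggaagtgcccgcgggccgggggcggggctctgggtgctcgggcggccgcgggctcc
ZNF768: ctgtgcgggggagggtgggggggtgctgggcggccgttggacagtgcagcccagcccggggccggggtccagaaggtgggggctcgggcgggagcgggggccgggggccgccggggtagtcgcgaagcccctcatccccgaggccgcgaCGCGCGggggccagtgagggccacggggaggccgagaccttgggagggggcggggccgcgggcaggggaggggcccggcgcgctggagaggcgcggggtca
ZNF853: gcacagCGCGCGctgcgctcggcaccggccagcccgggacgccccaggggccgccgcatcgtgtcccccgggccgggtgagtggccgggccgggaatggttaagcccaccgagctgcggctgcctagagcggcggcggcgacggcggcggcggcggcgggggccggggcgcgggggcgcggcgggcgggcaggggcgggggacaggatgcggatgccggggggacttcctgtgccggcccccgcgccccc
ZNF467: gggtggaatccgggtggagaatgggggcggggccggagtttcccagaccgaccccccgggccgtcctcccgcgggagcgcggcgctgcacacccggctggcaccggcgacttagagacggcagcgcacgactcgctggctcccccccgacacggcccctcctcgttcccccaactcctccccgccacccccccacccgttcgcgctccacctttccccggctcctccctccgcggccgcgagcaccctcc
ZNF33A: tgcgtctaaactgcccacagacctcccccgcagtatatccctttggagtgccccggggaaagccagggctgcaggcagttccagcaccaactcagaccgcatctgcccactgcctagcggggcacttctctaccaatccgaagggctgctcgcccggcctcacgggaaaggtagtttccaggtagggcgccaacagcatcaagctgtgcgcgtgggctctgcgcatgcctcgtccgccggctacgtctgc
ZNF33B: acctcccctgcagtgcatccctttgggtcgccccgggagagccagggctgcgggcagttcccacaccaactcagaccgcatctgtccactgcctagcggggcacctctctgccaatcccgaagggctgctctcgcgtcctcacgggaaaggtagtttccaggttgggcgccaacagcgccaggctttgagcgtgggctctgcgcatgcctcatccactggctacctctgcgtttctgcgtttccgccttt
The GC content of these stretches was 84.4% for ZNF664, 74.8% for ZNF70, 81.2% for ZNF768, 83.2% for ZNF853 and 75.6% for ZNF467, against 63.6% for both ZNF33A and ZNF33B. ZNF664 holds 1 unbroken stretch in which the run is met at 159 and again at 157 bases before the start. ZNF70 holds the run at 125 and at 77 bases, ZNF768 at 101 bases and ZNF853 at 244 bases, and the windows of ZNF467, ZNF33A and ZNF33B hold none. A match is a description of the letters in this window and not a mapped site.

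Several facts of the libraries bear on every result. Recovered reads in coding exons ranged from 1839960 to 4072059, with the fewest in the libraries labelled Zab, 1839960 and 2097530. Those libraries also held only 6.44 and 6.66 coding-exon reads per 100 tags, against 13.1 to 13.8 in the other 6. Reads mostly came in twos: 77.2% to 82.7% of counts from 1 to 20 were even. Between the 2 libraries of a group, members with at least 20 reads gave a chi-square of 1.77 to 2.15 per gene. If all reads came in twos, counting alone would give about 2. With a spread that near to counting, the adjusted p-values say little about how far separate cultures would differ. MYC, at 776 and 752 CPM (reads scaled by TMM to a common library size) in WT, stood at 6578 and 6606 in the libraries labelled MYC but at 752 and 772 in those labelled MYC_Zab, against their label. ADAR took 33914 and 33898 CPM in WT and 32282 and 32341 in MYC_Zab, but 519 and 567 in Zab and 445 and 464 in MYC. The groups are therefore named by label only, and whether a difference follows the label, ADAR or the share of coding reads cannot be told apart. ADAR, the gene with the Z-binding domains, was high under the label WT and low under the label Zab, and whether labels were exchanged between groups was not tested. An exchange of WT and Zab would turn the sign of each Zab over WT value. Of the 6 osteosarcoma line markers examined, VIM, SPARC, COL1A1 and RUNX2 were measured and COL1A2 was at or near 0. ALPL was low, at 2.36 and 2.09 CPM in Zab, where RUNX2 was at 4.72 and 2.09. Of 4 markers of other cell types, PTPRC and ALB were at or near 0 and the epithelial genes CDH1 and EPCAM were low. CDH1 was at 0.648 and 3.58 CPM in WT, 0 and 0.989 in MYC, 0.519 and 0 in MYC_Zab and 0 in both Zab libraries. EPCAM was at 2.59 and 2.15 CPM in WT, 4.13 and 4.45 in MYC, 1.56 and 1.49 in MYC_Zab and 0 in both Zab libraries. The part of these genes in the results was not tested.

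The 251 members lie on 19 chromosomes. Chromosome 7 holds 34 of them, chromosome 16 holds 31, chromosome 1 holds 20, chromosome 3 holds 19 and chromosome 8 holds 18, and 130 are on the plus strand. Their gene spans run from 0.966 to 579 kb with a median of 21.0 kb. In these libraries 11 members had no read: ZNF479, ZNF648, ZNF679, ZNF705B, ZNF705G, ZNF716, ZNF732, ZNF735, ZNF750, ZNF80 and ZNF831. Another 31 had reads but too few to be tested, at most 60 over the 8 libraries. The 209 tested members had a median level of 18.7 CPM over the 8 libraries, within a range of 1.75 to 350, against a median of 33.8 CPM for all 11985 tested genes. They were also shorter than those, with a median span of 20.5 against 29.4 kb. The deposited tables keep 1 transcript per gene, chosen anew in each library, and 95 of the 209 tested members were counted on the same transcript throughout.

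Per kb of exon, the most highly read members were ZNF207 at 106 CPM per kb, ZNF593 at 64.3, ZNF622 at 49.8, ZNF598 at 45.1, ZNF609 at 39.0 and ZNF511 at 38.2, as means over the 8 libraries. ZNF207, also called BuGZ, loads the checkpoint protein BUB3 onto kinetochores. ZNF593 and ZNF622 are factors of large ribosomal subunit assembly, and ZNF598 is the ubiquitin ligase that marks collided ribosomes. ZNF207 was also the most abundant of the 57 members called in none of the 6 comparisons of 2 groups, at 259 and 244 CPM in WT, 229 and 227 in Zab, 241 and 253 in MYC, with 244 and 250 in MYC_Zab.

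The share of all coding reads that fell in members differed with the group. The libraries labelled Zab gave 0.560% and 0.563%, WT gave 0.699% and 0.686%, MYC_Zab 0.727% for both, and MYC 0.752% and 0.740%. The Zab libraries lay below all others and the MYC libraries above all others, with no overlap. The group means were 0.561% ± 0.00197 for Zab, 0.692% ± 0.00924 for WT, 0.727% ± 0.000128 for MYC_Zab and 0.746% ± 0.00853 for MYC (SD, n = 2). The ZNF genes of chromosome 19 stood in the same order, at 0.215%, 0.266%, 0.282% and 0.295%. Scaled to library totals, the median of all tested genes was also negative in Zab over WT, at -0.24 in log2, beside -0.40 for members. In MYC over WT these medians were -0.06 and 0.08. After TMM scaling the summed CPM of members was 6074 and 6182 in Zab and 6750 and 6634 in WT. It was 6854 and 6858 in MYC_Zab and 7538 and 7451 in MYC. An exact permutation of 2 libraries against 2 cannot give a two-sided p below 0.333, so these shares are given without a test.

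**Figure D1:**
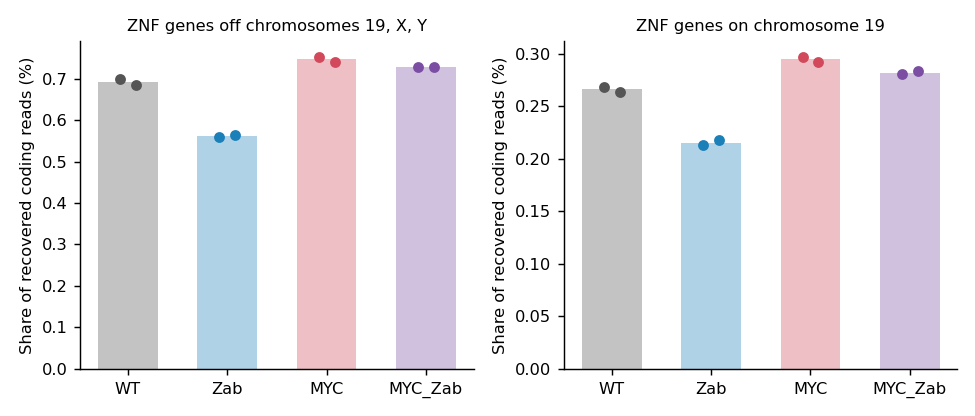
Share of recovered coding reads, in percent, that fell in the ZNF genes studied here (left) and in those of chromosome 19 (right). Points are the 2 libraries of each group and bars their mean. On the left the Zab libraries stand at 0.560% and 0.563%, below the other 6.

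Across the 6 comparisons of 2 groups, 152 of 209 tested members, 72.7%, were called at least once at an adjusted p under 0.05 in limma, against 79.1% of all tested genes. All changes below are on the log2(CPM + 1) scale, relative to TMM scaling, with SE from limma and n = 2 libraries per group. That scaling takes the median gene as level. The deposited values also hold a multiplier for each library, of which the sources used here do not give the origin. On that scale the median of all tested genes shifted by -0.62 in Zab over WT and by 0.46 in MYC over WT.

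With the label MYC against WT, 39 members rose and 19 fell, which is 18.7% and 9.09% of those tested, beside 22.2% and 21.9% of all tested genes. The median member stood at 0.13 and the median of all tested genes at -0.01. The change was at least 2-fold in 13 of the members that rose and 6 of those that fell. Changes of that size were not counted over all tested genes, here or in the comparisons below. Counts of calls depended on single libraries: 23 members rose without either MYC replicate 1 or MYC replicate 2, and 12 fell without MYC replicate 2. The calls of 14 of the 39 and 11 of the 19 held without each of the 8 libraries in turn. On the deposited scale the split was 109 higher and 7 lower.

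ZNF704, a relative of ZNF395, had the largest rise. It stood at 27.5 and 23.6 CPM in WT, 25.9 and 18.9 in Zab, 108 and 97.7 in MYC, with 28.5 and 23.3 in MYC_Zab, so only the MYC libraries were high. The change in MYC over WT was 1.97 ± 0.20 (adjusted p = 4.13e-09, limma), a 4.03-fold difference of mean CPM. The gene spans 81540686 to 81786703 on the minus strand of chromosome 8 in hg19. ZNF664, whose promoter is shown above, was read at 53.1 and 56.1 CPM in WT, 84.3 and 90.1 in Zab, 159 and 162 in MYC, with 54.8 and 57.1 in MYC_Zab. Both Zab libraries and, further, both MYC libraries were above WT, while MYC_Zab overlapped it. ZNF664, at 124457762 to 124499974 on the plus strand of chromosome 12 in hg19, rose by 1.54 ± 0.12 in MYC over WT (adjusted p = 4e-11).

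ZNF778, a KRAB gene at 89284111 to 89303479 on the plus strand of chromosome 16 in hg19, was at 28.8 and 15.7 CPM in WT and at 61.2 and 56.9 in MYC, a change of 1.42 ± 0.24 (adjusted p = 2.35e-05). ZNF618, which encodes a partner of UHRF2, was at 23.3 and 22.2 CPM in WT and 60.2 and 52.9 in MYC, a change of 1.27 ± 0.21 (adjusted p = 1.81e-05). In the libraries labelled MYC_Zab both genes were at WT-like levels, 23.1 and 22.1 CPM for ZNF778 and 19.2 and 20.6 for ZNF618. The naming rule also took ZNF391 and ZNF883, whose calls rested on few reads. ZNF391 rose by 1.50 ± 0.57 (adjusted p = 0.0333) and was no longer called without MYC replicate 1 (1.14), MYC replicate 2 (1.85), WT replicate 1 (1.60) or WT replicate 2 (1.40). ZNF883 rose by 1.35 ± 0.50 (adjusted p = 0.0284) and was no longer called without MYC replicate 1 (1.17), MYC replicate 2 (1.53) or WT replicate 2 (1.09).

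Among the members that fell, ZNF365 changed most. This gene, whose product protects replication forks and telomeres, was at 23.7 and 27.2 CPM in WT, 13.0 and 8.38 in Zab, 6.97 and 2.97 in MYC, with 15.6 and 24.8 in MYC_Zab. Its change in MYC over WT was -2.23 ± 0.34 (adjusted p = 5.68e-06). ZNF76, a paralogue of the promoter factor ZNF143, was at 20.4 and 21.1 CPM in WT, 30.1 and 26.2 in Zab, 9.55 and 5.44 in MYC, with 20.8 and 19.4 in MYC_Zab. The MYC libraries of ZNF76 were below all 6 others, with a change of -1.40 ± 0.28 over WT (adjusted p = 0.000144). ZNF623 fell by 1.28 ± 0.26 (adjusted p = 0.000187), from 30.8 and 25.03 CPM in WT to 10.8 and 10.9 in MYC.

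ZNF217, an oncogene of the amplified 20q13 region of breast cancer whose product works with the CoREST corepressor, was the most abundant of the members that fell by at least 2-fold. It had 130 and 138 CPM in WT, 105 and 97.4 in Zab, 59.9 and 57.6 in MYC, with 114 and 121 in MYC_Zab. Neither the Zab nor the MYC libraries overlapped WT, and the changes were -1.18 ± 0.11 in MYC over WT (adjusted p = 1.45e-09) and -0.40 ± 0.11 in Zab over WT (adjusted p = 0.00393). A pair of members with low levels that the naming rule took lost their calls without single libraries. ZNF214 had a change of -1.72 ± 0.56 (adjusted p = 0.013), lost without MYC replicate 2 (-1.08), WT replicate 1 (-1.61) or WT replicate 2 (-1.82). ZNF469 had a change of -1.49 ± 0.51 (adjusted p = 0.0187), lost without MYC replicate 2 (-0.97) or WT replicate 1 (-1.29).

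**Figure D2:**
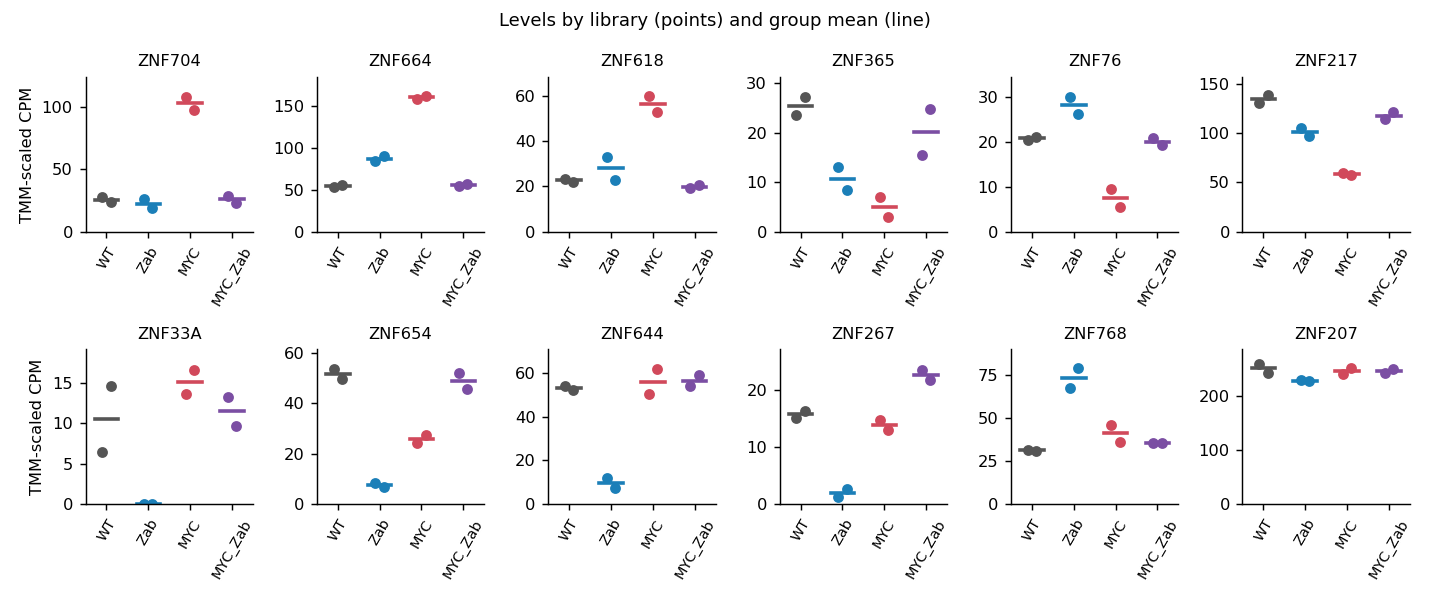
TMM-scaled CPM of 12 members in each library (points) with the group mean (line), groups on the horizontal axis. ZNF704 is high only in the MYC libraries, at 108 and 97.7 CPM, ZNF33A is at 0 in both Zab libraries, and ZNF207 differs little between groups.

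With the label Zab against WT, 28 members rose and 73 fell, which is 13.4% and 34.9% of those tested, beside 22.5% and 27.1% of all tested genes. The median member was at -0.23 and the median of all tested genes at -0.08. Of the members that fell, 50 did so by at least 2-fold, against 3 of those that rose. Without a count over all tested genes, this split is not read as particular to members. The calls of 45 of the 73 that fell and 13 of the 28 that rose held without each library in turn. The falls kept their call on the deposited scale in 73 of 73 cases, while 26 of the 28 rises were lost or turned there, 11 of them to a negative value, and the split on that scale was 2 higher and 114 lower. The share of coding reads per tag was lowest in the Zab libraries, and its part in these counts was not tested.

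ZNF33A, a KRAB gene at 38299603 to 38349015 on the plus strand of chromosome 10 in hg19, had no read in either Zab library. It was at 6.48 and 14.7 CPM in WT, 13.7 and 16.6 in MYC, with 13.2 and 9.68 in MYC_Zab. With 3 reads over the 2 Zab libraries set in place of 0, ZNF33A was 12.7-fold lower there than the mean of WT. The values were 18.2-fold against MYC and 13.8-fold against MYC_Zab. They allow for no error in the other group, and reads mostly came in twos, so they are not firm lower bounds. The tables counted ZNF33A on 6 different transcripts over the 8 libraries, and its close copy ZNF33B could share reads with it. ZNF33B, at 43084557 to 43134018 on the minus strand of chromosome 10 in hg19, fell as well, from 15.6 and 23.6 CPM in WT to 2.36 and 4.71 in Zab, a change of -2.20 ± 0.32 (adjusted p = 2.23e-06). Its other groups, at 16.8 and 14.3 CPM in MYC and 22.1 and 27.6 in MYC_Zab, did not overlap the Zab libraries.

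ZNF354A and ZNF354B, neighbouring KRAB genes on chromosome 5, each kept 2 reads in the Zab libraries together. For ZNF354A these stood against 53 reads in WT, a ratio of 16.2 with a 95% counting interval of 4.28 to 138. For ZNF354B they stood against 43 reads, a ratio of 13.2 with an interval of 3.43 to 112. ZNF658 was alike, with 2 reads against 46, a ratio of 14.1 with an interval of 3.69 to 120. The intervals cover counting error only and are too narrow, because reads mostly came in twos. In the fit the changes were -2.75 ± 0.46 for ZNF354A (adjusted p = 1.67e-05), -2.42 ± 0.49 for ZNF354B (adjusted p = 0.000174) and -2.62 ± 0.49 for ZNF658 (adjusted p = 6.39e-05).

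Members read more deeply fell too. ZNF654 was at 53.5 and 49.7 CPM in WT, 8.25 and 6.81 in Zab, 24.3 and 27.4 in MYC, with 51.9 and 45.7 in MYC_Zab. Its 4 groups fell into 3 levels, with MYC between Zab and the overlapping pair of WT and MYC_Zab. The change of ZNF654 was -2.63 ± 0.21 in Zab over WT (adjusted p = 6.22e-11) and -0.97 ± 0.21 in MYC over WT (adjusted p = 0.000514). ZNF644, whose product recruits the methyltransferase G9a, was at 54.1 and 52.6 CPM in WT, 11.8 and 7.33 in Zab, 50.3 and 61.8 in MYC, with 54.2 and 59.1 in MYC_Zab. Only the Zab libraries stood apart for ZNF644, with a change of -2.40 ± 0.20 (adjusted p = 1.53e-10). ZNF267 was at 15.2 and 16.4 CPM in WT, 1.18 and 2.62 in Zab, 14.7 and 13.1 in MYC, with 23.6 and 21.8 in MYC_Zab. Its Zab libraries were also the lowest, but MYC lay below WT and MYC_Zab above it without overlap. The change in Zab over WT was -2.58 ± 0.33 (adjusted p = 3.1e-07).

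Of the 28 rises, those of ZNF768 and ZNF467 were the only calls that also held on the deposited scale. ZNF768, on chromosome 16 at 30535326 to 30537887 on the minus strand in hg19, was at 31.4 and 30.7 CPM in WT, 67.2 and 79.1 in Zab, 46.0 and 36.1 in MYC, with 35.3 and 35.2 in MYC_Zab. The Zab libraries of ZNF768 lay above all others, and the change over WT was 1.20 ± 0.17 (adjusted p = 2.05e-06). ZNF467 was at 0.648 and 3.58 CPM in WT and at 10.6 and 11.5 in Zab, a change of 2.13 ± 0.49 (adjusted p = 0.000773) that was 1.40 without WT replicate 1. ZNF70 (28.5 and 39.7 CPM in WT, 61.3 and 69.1 in Zab), ZNF853 (44.7 and 48.6 in WT, 86.1 and 74.4 in Zab) and ZNF664 rose by 0.93 ± 0.18, 0.77 ± 0.16 and 0.66 ± 0.12. Those of ZNF70, ZNF853 and ZNF664 were not called on the deposited scale, though their sign stayed the same. The rule also took ZNF251 and ZNF775. ZNF251 changed by 0.99 ± 0.36 (adjusted p = 0.0243), lost without WT replicate 1 (0.79) or Zab replicate 1 (0.94). ZNF775 changed by 1.29 ± 0.52 (adjusted p = 0.0418), lost without any of MYC replicate 1 (1.29), MYC replicate 2 (1.29), MYC_Zab replicate 1 or 2 (1.29 each), WT replicate 2 (0.89) and Zab replicate 2 (0.50), and at 2.08 without Zab replicate 1.

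**Figure D3:**
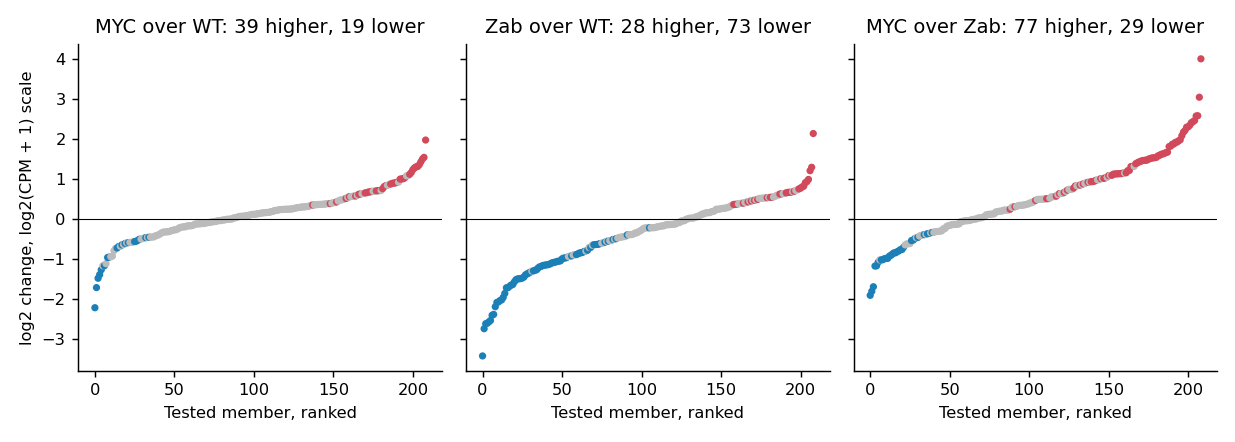
Change of each of the 209 tested members (horizontal axis) in 3 comparisons, ranked, on the log2(CPM + 1) scale, with calls at an adjusted p under 0.05 in red (higher) and blue (lower) and all others in grey. In Zab over WT 28 members are higher and 73 lower, in MYC over WT 39 and 19. On the deposited scale the splits are 2 and 114 and 109 and 7.

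Both comparisons use the same WT libraries, so their values are set side by side only. Of the 209 members, 10 were called higher in both, 8 lower in both, 10 lower in Zab and higher in MYC, 2 higher in Zab and lower in MYC, while 80 were called in neither. A further 55 were lower in Zab alone, 16 higher in Zab alone, 19 higher in MYC alone and 9 lower in MYC alone. These classes were not counted over all tested genes, so they are not read as particular to members. In Zab over WT 49.6% of all tested genes were called in either direction, beside 48.3% of members. In MYC over WT the shares were 44.1% and 27.8%. The direct comparison of MYC over Zab called 77 members higher and 29 lower, beside 30.6% and 25.9% of all tested genes, which is 36.8% and 13.9% of the 209, with 19 lower without MYC replicate 1. The median member stood at 0.46 in that comparison and the median gene at 0.08. Of the calls, 59 members were higher and 8 lower by at least 2-fold, again with no such count over all tested genes.

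Among members lower in Zab and higher in MYC, ZNF106 had 176 and 192 CPM in WT, 131 and 125 in Zab, 260 and 233 in MYC, with 186 and 172 in MYC_Zab. No Zab or MYC library of ZNF106 overlapped WT, and MYC over Zab was 0.94 ± 0.09 (adjusted p = 7.98e-10). ZNF451, a SUMO ligase, had 51.2 and 65.4 CPM in WT, 36.0 and 30.4 in Zab, 99.4 and 86.5 in MYC, with 69.0 and 65.5 in MYC_Zab, and MYC over Zab was 1.46 ± 0.15 (adjusted p = 6.27e-09). ZNF281, a repressor of G-rich promoters, had a difference of 1.13 ± 0.14 (adjusted p = 9.25e-08), from 42.4 and 51.3 CPM in Zab to 110 and 96.4 in MYC. In the opposite class, ZNF703, an oncogene of luminal breast cancer, had 84.6 and 83.7 CPM in WT, 125 and 120 in Zab, 61.4 and 60.1 in MYC, with 100 and 106 in MYC_Zab. MYC over Zab was -0.999 ± 0.12 for ZNF703 (adjusted p = 3.17e-08), while its changes over WT, 0.54 in Zab and -0.46 in MYC, turned to -0.06 and 0.03 on the deposited scale. The rule also took members from the lower side of this comparison. ZNF467 was at -1.92 ± 0.49 (adjusted p = 0.00169) and ZNF76 at -1.82 ± 0.28 (adjusted p = 2.72e-06). ZNF688 was at -1.70 ± 0.55, lost without MYC replicate 1 (-1.51), and ZNF517 at -1.18 ± 0.43, lost without MYC replicate 1 (-1.20), MYC replicate 2 (-1.16) or Zab replicate 1 (-0.63).

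The libraries labelled MYC_Zab were set against each of the other groups. Over WT, no member was called in either direction in limma, where all genes gave 0.134% higher and 0.442% lower. At an unadjusted p under 0.05 there were 11 members (5.26%, beside 7.68% of all tested genes), edgeR's quasi-likelihood test called 1 and DESeq2 0, and on the deposited scale 19 were higher. The median member stood at 0.08 and the SE of a change at a median of 0.273, so small differences were not detectable with 2 libraries a group. Over Zab, 69 members were higher and 24 lower, which is 33.0% and 11.5%, beside 26.8% and 22.6% of all tested genes, with 14 lower without MYC_Zab replicate 1 and 15 without replicate 2. ZNF33A, ZNF518A, ZNF267, ZNF334 and ZNF33B had the largest of these rises that the naming rule took, from 3.62 ± 0.42 for ZNF33A to 2.55 ± 0.32 for ZNF33B. Their Zab libraries held few reads: 0 and 0 for ZNF33A, 12 and 2 for ZNF518A, 2 and 5 for ZNF267, 0 and 4 for ZNF334, and 4 and 9 for ZNF33B. The size of these rises depends on the pseudocount. Over MYC, 21 were higher and 25 lower, which is 10.05% and 11.96%, beside 22% and 22.5% of all tested genes. That count moved to 16 lower without MYC_Zab replicate 2, to 38 without Zab replicate 1 and to 40 without Zab replicate 2.

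In MYC_Zab over MYC the members furthest from WT in MYC stood near their WT level in MYC_Zab. ZNF704 was at -1.95 ± 0.20, ZNF664 at -1.50 ± 0.12 and ZNF618 at -1.46 ± 0.21. ZNF365 was at 1.88 ± 0.34, ZNF76 at 1.35 ± 0.28 and ZNF217 at 0.99 ± 0.11. These values share the MYC libraries with MYC over WT and are not independent of it. A further pair lost their calls without single libraries. ZNF232 was at -1.10 ± 0.35, lost without MYC replicate 2 (-0.88) or MYC_Zab replicate 2 (-0.92), and ZNF362 at 1.38 ± 0.46, lost without MYC replicate 2 (1.15) or MYC_Zab replicate 2 (1.05).

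The interaction asks whether the Zab difference was the same with and without the MYC label, as MYC_Zab over MYC minus Zab over WT. At an adjusted p under 0.05 in limma it was called above 0 in 50 members and below 0 in 30, which is 23.9% and 14.4%, beside 29.3% and 24% of all tested genes. The largest values were 3.70 ± 0.79 for ZNF214, 3.58 ± 0.69 for ZNF658 and 3.52 ± 0.30 for ZNF654, and on the other side -2.17 ± 0.17 for ZNF664, -1.77 ± 0.68 for ZNF169 and -1.76 ± 0.28 for ZNF704. ZNF214 had only 0 and 4 reads in Zab and 15 and 4 in MYC, over 5 transcripts, and ZNF658 only 0 and 2 in Zab. The size of those 2 values depends on the pseudocount. The value of ZNF169 was not called without MYC replicate 1 (-1.50), MYC_Zab replicate 2 (-1.51), WT replicate 2 (-1.56) or Zab replicate 1 (-1.50).

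The lists by role are small, and their counts stand beside 22.2% of all tested genes higher and 21.9% lower in MYC over WT, and 22.5% and 27.1% in Zab over WT. Read by role, the genes of ribosome assembly and quality control moved in parts. Of 4 such members, 2 rose and 0 fell in MYC over WT (median 0.30), and 2 rose and 1 fell in Zab over WT (median 0.40), where the medians of all tested genes were -0.01 and -0.08. ZNF598 was at 111 and 118 CPM in WT, 156 and 208 in Zab, 171 and 195 in MYC, with 137 and 110 in MYC_Zab. It rose by 0.67 ± 0.12 in MYC over WT (adjusted p = 3.8e-05) and by 0.65 ± 0.12 in Zab over WT (adjusted p = 5.29e-05), the second not called on the deposited scale. ZNF622 was at 80.0 and 76.9 CPM in WT and 107 and 114 in Zab, a change of 0.48 ± 0.13 (adjusted p = 0.00287) that turned to -0.12 on the deposited scale. ZNF593 rose in MYC by 0.62 ± 0.19 (adjusted p = 0.00903), lost without MYC replicate 1 (0.64), MYC replicate 2 (0.60) or WT replicate 2 (0.59). ZNF277 had a change of -1.05 ± 0.40 in Zab (adjusted p = 0.0321), lost without WT replicate 1 (-1.06), WT replicate 2 (-1.04) or Zab replicate 1 (-0.61).

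Of 7 RNA-binding members, 2 rose (28.6%) and 1 fell (14.3%) in MYC over WT (median 0.18), near the 22.2% and 21.9% of all tested genes, and 0 rose and 3 fell (42.9%) in Zab over WT (median -0.25), beside 22.5% and 27.1%. ZNF638, a nuclear RNA- and DNA-binding protein linked to silencing of unintegrated viral DNA, was at 122 and 115 CPM in WT, 42.4 and 35.6 in Zab, 116 and 112 in MYC, with 117 and 124 in MYC_Zab. Only the Zab libraries were low, with a change of -1.58 ± 0.12 (adjusted p = 1.71e-11). ZNF106 rose in MYC and fell in Zab, as given above. ZNF385A, a partner of p53 that also binds mRNA, fell in MYC, at -0.96 ± 0.25 (adjusted p = 0.00274), not called on the deposited scale. ZNF346, a reader of double-stranded RNA, rose in MYC by 0.70 ± 0.21 (adjusted p = 0.00875), lost without MYC replicate 1 (0.60) or WT replicate 2 (0.46). ZNF326, of the complex that links splicing to elongation, had a change of -0.59 ± 0.17 in Zab (adjusted p = 0.00606), lost without WT replicate 1 (-0.43) or Zab replicate 2 (-0.44).

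Of 8 promoter-binding members, 1 rose (12.5%) and 2 fell (25%) in MYC over WT (median 0.09), and 0 rose and 4 fell (50%, beside 27.1% of all tested genes) in Zab over WT (median -0.43). ZNF148, which binds G-rich promoters, was at 85.6 and 74.4 CPM in WT, 25.9 and 29.3 in Zab, 84.4 and 78.1 in MYC, with 82.5 and 74.7 in MYC_Zab, a change of -1.50 ± 0.14 in Zab over WT (adjusted p = 1.69e-09). Its relative ZNF281 fell by 0.62 ± 0.14 in Zab (adjusted p = 0.000543) and rose by 0.51 ± 0.14 in MYC (adjusted p = 0.00383), the rise lost without MYC replicate 1 (0.41) or WT replicate 2 (0.43). ZNF131 was at 48.9 and 52.6 CPM in WT and 17.7 and 17.3 in Zab, a change of -1.48 ± 0.18 (adjusted p = 1.12e-07). Its change in MYC over WT was -0.47 ± 0.18 (adjusted p = 0.0343), which became 0.01 on the deposited scale and was lost without either MYC replicate (-0.48 and -0.47), either MYC_Zab replicate (-0.47 each) or either WT replicate (-0.51 and -0.42). ZNF143 had a change of -0.65 ± 0.23 in Zab (adjusted p = 0.0202), lost without WT replicate 2 (-0.57) or Zab replicate 2 (-0.59). ZNF384, at 83.6 and 88.3 CPM in WT and 84.3 and 86.9 in Zab, was called in no comparison.

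The list for development and cancer holds 9 members, of which ZNF423, ZNF521 and ZNF750 were not tested. Of the other 6, 0 rose and 5 fell (83.3%, beside 21.9% of all tested genes) in MYC over WT (median -0.59). In Zab over WT 2 rose (33.3%, beside 22.5%) and 4 fell (66.7%, beside 27.1%; median -0.63), though both rises and 1 of the falls in MYC turned on the deposited scale. ZNF462, a chromatin regulator mutated in a craniofacial syndrome, was at 203 and 178 CPM in WT, 104 and 105 in Zab, 123 and 124 in MYC, with 206 in both MYC_Zab libraries. Its Zab and MYC libraries lay below all others, with changes of -0.86 ± 0.09 (adjusted p = 1.65e-08) and -0.62 ± 0.09 (adjusted p = 4.08e-06), the second not called on the deposited scale. ZNF292 fell in Zab, at -1.12 ± 0.25 (adjusted p = 0.000591), or -0.70 without Zab replicate 2. ZNF365 also fell in Zab, at -1.20 ± 0.34 (adjusted p = 0.00497), lost without WT replicate 2 (-1.11) or Zab replicate 2 (-0.92). ZNF395 rose by 0.53 ± 0.15 in Zab (adjusted p = 0.00407), lost without WT replicate 1 (0.44) or Zab replicate 2 (0.35) and at -0.07 on the deposited scale, and fell in MYC, at -0.56 ± 0.15 (adjusted p = 0.00256), lost without MYC replicate 2 (-0.48) and on the deposited scale.

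The 3 zinc finger members of the Z3 complex, which works with the chromatin reader ZMYND8, were not called in MYC over WT (median -0.01). Zab over WT called 2 of the 3 higher and 0 lower (median 0.36), but both were negative on the deposited scale. ZNF592 was at 130 and 142 CPM in WT and 170 and 179 in Zab, a change of 0.36 ± 0.10 (adjusted p = 0.0032) that was -0.24 on the deposited scale. ZNF687 had a change of 0.39 ± 0.15 (adjusted p = 0.0355), -0.21 on the deposited scale and lost without WT replicate 1 (0.44), WT replicate 2 (0.34) or Zab replicate 2 (0.28). Of 9 ligases and genome maintenance factors, 3 rose and 2 fell in MYC over WT (median 0.12), and 1 rose and 4 fell in Zab over WT (median -0.23). ZNF280C, counted among the lower calls in both, lies on chromosome X and is no member. The others were ZNF451, ZNF598 and ZNF618, which rose, and ZNF365, which fell, in MYC. In Zab they were ZNF598, which rose, and ZNF365, ZNF451 and ZNF644, which fell, with the values given above.

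The KRAB corepressor machinery, whose 21 genes are not members, was read for context. In MYC over WT 7 of its genes rose and 3 fell (33.3% and 14.3%, beside 22.2% and 21.9% of all tested genes; median 0.09). Without MYC replicate 1 these were 4 and 1, without MYC replicate 2 5 and 1, and without WT replicate 1 4 and 1. In Zab over WT 5 rose and 9 fell (23.8% and 42.9%, beside 22.5% and 27.1%; median -0.16), with 3 rising without WT replicate 2. On the deposited scale CHD3 turned to 0.29 in MYC over WT, and 4 of the 5 rises in Zab over WT, those of CHD4, DAXX, DNMT3A and TRIM28, were negative. TRIM28 was at 403 CPM in both WT libraries, 601 and 627 in Zab, 569 and 590 in MYC, with 347 and 392 in MYC_Zab. TRIM28 rose by 0.52 in MYC over WT and by 0.61 in Zab over WT, the latter becoming -0.00 on the deposited scale. Lower in Zab over WT were the remodeller SMARCAD1 (-2.11), the remodeller ATRX (-1.67), the SETDB1 partner ATF7IP (-1.45) and TASOR (-1.27), a subunit of the HUSH silencing complex. The DNA methyltransferase DNMT3B rose by 1.38 in MYC over WT.

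Gene span, level and transcript choice differed between the members called in each direction. Members under 20 kb gave in Zab over WT 18 higher and 27 lower of 103 (17.5% and 26.2%, median -0.11), beside 32.5% and 17.2% of all tested genes of that span (median 0.18). Members of 20 to 50 kb gave 7 and 30 of 75 (9.33% and 40%, median -0.46), beside 21.2% and 28.7% (median -0.11). Those over 50 kb gave 3 and 16 of 31 (9.68% and 51.6%, median -0.50), beside 12.3% and 36.9% (median -0.32). In each span class the median member lay below the median gene of that class. By level over all libraries, the lowest class, under 11.2 CPM, gave 3 higher and 26 lower of 70 (4.29% and 37.1%, median -0.61), beside 5.95% and 19.6% of all tested genes at that level. The highest class, above 29.4 CPM, gave 20 and 25 of 70 (28.6% and 35.7%, median -0.12), beside 34.6% and 28.2%. Members counted on 1 transcript throughout gave 22 higher and 31 lower of 95 (23.2% and 32.6%, median -0.18), beside 27.03% and 24.8% of all such genes. The others gave 6 and 42 of 114 (5.26% and 36.8%, median -0.37), beside 17.3% and 29.7%. Other zinc finger genes can be set beside these counts. The 172 tested ZNF genes of chromosome 19 gave 14 higher and 54 lower (8.14% and 31.4%, median -0.38), and 66 ZSCAN, ZKSCAN, ZBTB and ZFP genes 6 and 29 (9.09% and 43.9%, median -0.37).

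In the genome, 76 members, 66 of them tested, lie in 12 arrays of at least 4 members whose neighbours are at most 250 kb apart. In MYC over WT, 15 array members rose, 22.7% and so near the 22.2% of all tested genes, and 0 fell, beside 21.9%, with a median of 0.33. The rises were 6 to 19 with 1 library left out, the fewest without MYC replicate 2, with 9 without MYC replicate 1, 10 without WT replicate 1 and 9 without WT replicate 2, which also gave 1 fall. Outside arrays 24 rose and 19 fell (16.8% and 13.3%), with a median of 0.03, and 14 rose without MYC replicate 1, while 12 fell without MYC replicate 2. In Zab over WT, 8 rose and 16 fell in arrays (12.1% and 24.2%), against 20 and 57 outside (13.99% and 39.9%), beside 22.5% and 27.1% of all tested genes. Without WT replicate 1 the array members that fell were 10, without WT replicate 2 the array members that rose were 5, and outside arrays 13 rose without Zab replicate 2. Reads from near-identical neighbours could be assigned to either copy, and neighbouring members are not independent of each other. The arrays and their genes were looked at after their values were known, and no test was made.

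Single arrays differed in Zab over WT. In the array at 133494892 to 133791418 on chromosome 12, all 7 tested members were below 0, from -1.31 to -0.33, and 4 were called, ZNF605, ZNF26, ZNF84 and ZNF268, at -1.14, -0.84, -1.16 and -0.82. Each of those 4 calls was lost without 1 library: ZNF605 without WT replicate 2 (-0.93), ZNF26 without WT replicate 1 (-0.68) or Zab replicate 2 (-0.66), ZNF84 without WT replicate 2 (-1.01) or Zab replicate 2 (-0.47), and ZNF268 without WT replicate 1 (-0.69) or Zab replicate 2 (-0.57), while ZNF84 was at -1.86 without Zab replicate 1. In MYC over WT the 7 were all above 0, from 0.11 to 1.16. In the array at 38117693 to 38414471 on chromosome 10, which holds ZNF33A, the 3 tested members were all called lower in Zab, ZNF37A at -1.01 and ZNF248 at -1.15, the last lost without WT replicate 1 (-0.90) or Zab replicate 2 (-1.09). The array at 30406741 to 30798526 on chromosome 16, which holds ZNF768, went the other way, with 9 tested members between 0.01 and 1.20, a median of 0.53, 2 called higher and 0 lower. Those were ZNF768 and ZNF629, and the call of ZNF629 (0.44) was lost without WT replicate 2 (0.26) or Zab replicate 2 (0.22), stood at 0.67 without Zab replicate 1 and was -0.15 on the deposited scale, where the median of the 9 was -0.03. All these positions are in hg19, and over chromosome 16 as a whole the 28 tested members gave 5 higher and 2 lower (17.9% and 7.14%) with a median of 0.43. The higher count was 2 without WT replicate 2, and the median was -0.15 on the deposited scale.

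**Figure D4:**
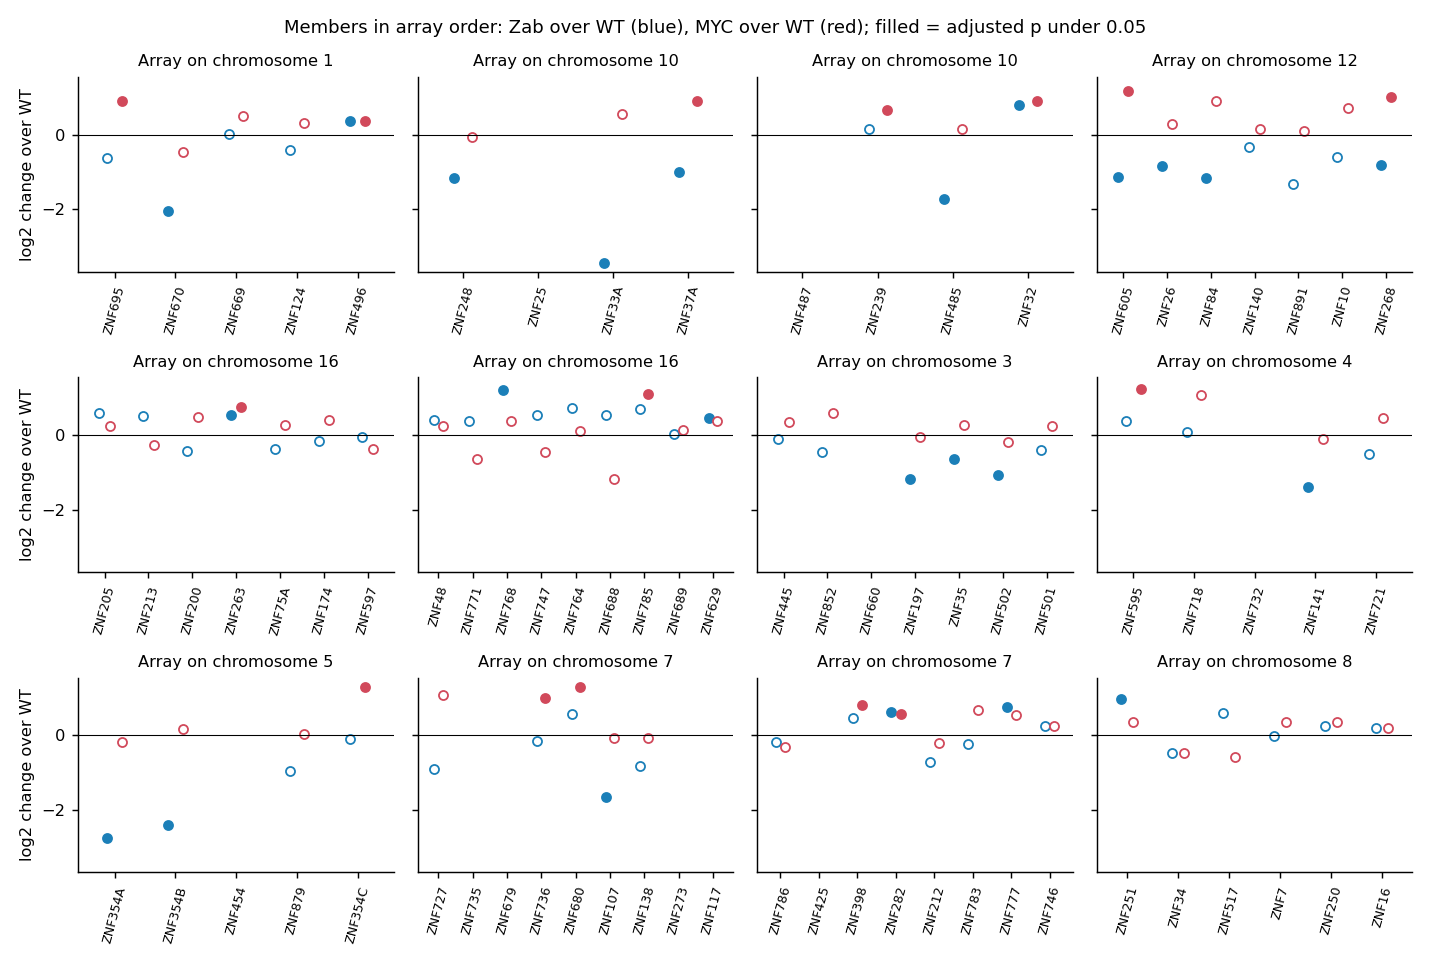
Changes over WT on the log2(CPM + 1) scale for the tested members of the 12 arrays, in genome order along the horizontal axis, Zab in blue and MYC in red, with filled points at an adjusted p under 0.05. In the chromosome 12 array all 7 blue points lie below 0 and all red points above it, and in the array with ZNF768 the blue points lie above 0.

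A promoter window in RefSeq, 300 bases from 250 before the start, was matched by symbol for 202 of the 251 members and for 177 of the 209 tested. For 48 members with several windows the first was used. None of the 14 tested members of chromosome 8 had a window, among them ZNF704, ZNF623, ZNF703, ZNF395 and ZNF251. Windows were at hand for 36 of the 39 members higher in MYC over WT and for 11 of the 19 lower. The shares below leave out the members without a window. On either strand CGCGCG was found in 22.0% of the tested members' windows, in 29.1% of those of the 9707 tested genes with a window, and in 16.2% of all 27305. Among members called higher in Zab over WT it was in 11 of 21 windows (52.4%), among those lower in 8 of 66 (12.1%), and among those not called in 20 of 90 (22.2%). Of all 28 members called higher, 26 lost their call or turned on the deposited scale, and 13 kept it without each library in turn. For all tested genes the shares were 32.2% of those higher and 27.6% of those lower. The median GC content was 75% for members higher, 61.7% for members lower and 63% for those not called.

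The change also differed between classes of GC content. Members with windows under 60% GC gave in Zab over WT 1 higher and 28 lower of 60 (1.67% and 46.7%, median -0.61), beside 16.5% and 32.8% of all tested genes in that class (median -0.22). Those of 60 to 70% gave 5 and 28 of 71 (7.04% and 39.4%, median -0.38), beside 21.3% and 28.2% (median -0.09). Those over 70% gave 15 and 10 of 46 (32.6% and 21.7%, median 0.22), beside 28.9% and 21.9% (median 0.07). The sign of these medians is relative to TMM scaling, and on the deposited scale the median of all tested genes was -0.62. Above 70% GC, members with the run gave 10 higher and 5 lower of 22 (median 0.36) and those without it 5 and 5 of 24 (median 0.10). All tested genes above 70% GC showed no such gap, with 473 higher and 373 lower of 1645 with the run (28.8% and 22.7%, median 0.06) and 459 and 332 of 1576 without it (29.1% and 21.1%, median 0.07). The E-box CACGTG was in 6.78% of tested members' windows and 10.3% of those of tested genes. Of the members higher in MYC over WT, 1 of 36 held it (2.78%), against 13.9% of all genes higher there. The repeat CACACACA or its complement was in 2.82% of tested members' windows and 2.04% of those of tested genes.

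**Figure D5:**
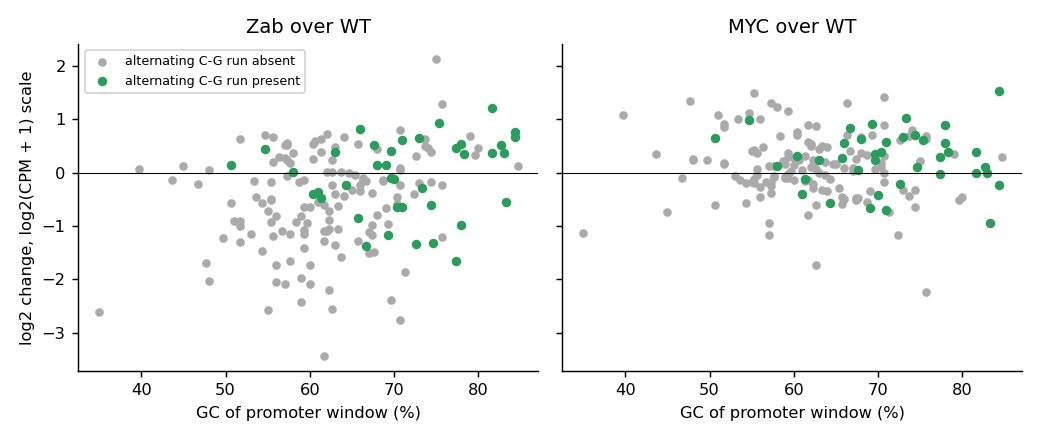
Change in Zab over WT (left) and MYC over WT (right), log2(CPM + 1) scale, against the GC content in percent of the 300-base promoter window for the 177 tested members that have one. None of the 177 lies on chromosome 8. Green points hold the alternating C-G run and grey points do not. The medians on the left are -0.61 under 60% GC and 0.22 above 70%, relative to TMM scaling. On the deposited scale the median of all tested genes in Zab over WT was -0.62.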

How the data were processed

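TT-seq libraries of labelled RNA from U2OS cells, 2 in each of 4 groups, were analysed. Tools listed in the submitters' processing notes are SAMtools 1.11, bedtools 2.29.2, STAR and Trim Galore 0.6.6, and builds are hg19 and dm6, all without a stated role. Per the file headers, the authors counted exon reads of hg19 RefSeq coding genes on the opposite strand with HOMER's analyzeRepeats, keeping 1 transcript per gene in each library. The values deposited are a signal, whole reads times a factor per library; dividing by that step gave whole reads within 0.02 for nearly all values, 99.96% to 99.99% per library.

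The deposited values were turned into CPM and TMM-scaled (edgeR 4.0.16), which removes the factor. Genes passed filterByExpr (minimum 10) on recovered reads. limma 3.58.1 (R 4.3.3) was run on log2(CPM + 1), with a variance trend, over 11985 genes and all 8 libraries in 1 fit with a term per group, leaving 4 residual degrees of freedom. The log2 pseudocount understates changes of low genes. P-values were adjusted by Benjamini-Hochberg over all tested genes and called under 0.05. Fold values as such are ratios of mean CPM. Floors of 3 reads allow for counting error only in the group without reads, and 95% intervals cover counting error only.

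Members named were, per comparison, the 5 called members furthest up and the 5 furthest down that had a mean of 2 CPM or more and whose libraries did not overlap (3 and 3 for the interaction), the 6 highest per kb, the members of role lists, and the 3 most abundant never called. Names that appear only in the arrays or classes were chosen after their values were seen. The members and the lists were chosen with earlier results of these data known. Alternatives were edgeR's quasi-likelihood test and DESeq2 1.42.0 on recovered reads, library totals or the deposited scale, pseudocount 0.25, other filters, a replicate block, 1 transcript throughout, replicate pairs merged, and each library left out. The fit was also run on simulated reads in which a small set of genes differed in 1 group. That run does not speak for the scaling or for error rates where many genes differ. Protein sequences were not used here.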

Additional observations from a re-analysis of the deposited data

Results flagged for a closer look

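The difference of MYC_Zab over MYC from Zab over WT was itself past the threshold in limma for 35 of the members named in the report, which is what brings them here. This interaction was called in 38.3% of all tested members, beside 53.3% of all tested genes. Many members were named for called differences among these same groups, so the 35 give no rate for the set. Above 0, with MYC_Zab over MYC the higher of the 2 log2 changes, were ZNF214 (3.69), ZNF658 (3.58), ZNF654 (3.52), ZNF267 (3.25), ZNF365 (3.08), ZNF33A (3.06), ZNF518A (2.92), ZNF33B (2.84), ZNF334 (2.79), ZNF644 (2.42), ZNF354A (2.31), ZNF354B (2.01), ZNF131 (1.996), ZNF362 (1.93), ZNF638 (1.66), ZNF623 (1.63), ZNF462 (1.59), ZNF385A (1.51), ZNF148 (1.45), ZNF292 (1.40), ZNF217 (1.39) and ZNF76 (0.93). Below 0 were ZNF664 (-2.17), ZNF169 (-1.77), ZNF704 (-1.76), ZNF618 (-1.73), ZNF70 (-1.57), ZNF251 (-1.51), ZNF768 (-1.41), ZNF778 (-1.39), ZNF598 (-1.22), ZNF593 (-0.88), ZNF853 (-0.84), ZNF511 (-0.84) and ZNF622 (-0.61). Over both Zab libraries, ZNF33A had 0 reads, ZNF354A, ZNF354B and ZNF658 had 2 each, and ZNF214 and ZNF334 had 4 each. The size of those values depends on the pseudocount. Of the 35, 29 kept their call without each library in turn and 6 did not. ZNF76 lost it without 6 libraries, at 0.58 without MYC replicate 2, 0.89 and 0.98 without MYC_Zab replicate 1 and 2, 0.94 and 0.91 without WT replicate 1 and 2, and 0.84 without Zab replicate 2. ZNF169 lost it without any of 4, as given above, ZNF354B without MYC replicate 1 (1.87), MYC_Zab replicate 2 (1.89) or WT replicate 1 (1.46), and ZNF362 without MYC replicate 2 (1.70), MYC_Zab replicate 2 (1.59) or WT replicate 1 (1.57). ZNF251 lost it without WT replicate 1 (-1.33) and ZNF622 without MYC replicate 2 (-0.43), while ZNF518A kept its call but was at 1.93 without Zab replicate 2. In ZNF644, ZNF638 and ZNF148 the value comes mostly from a fall in Zab over WT, with the MYC_Zab libraries near those labelled MYC. ZNF654 also fell in Zab, and its MYC libraries, at 24.3 and 27.4 CPM, were below those of MYC_Zab, at 51.9 and 45.7. In ZNF704, ZNF618 and ZNF778, not called in Zab over WT, the value comes mostly from the high level of the libraries labelled MYC. In ZNF664 the MYC libraries were high, at 159 and 162 CPM, and those of Zab, at 84.3 and 90.1, were also above WT, at 53.1 and 56.1. The libraries labelled MYC_Zab lay near WT for each of these genes, and MYC and ADAR themselves stood near WT levels there, so the values describe the libraries as labelled. Their part in the interaction was not tested.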

How the results depend on the processing

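Of 248 called results for members and KRAB machinery genes, 4323 values were recomputed under the alternatives: 3783 kept their direction and call, 522 kept the direction but not the call, and 18 turned, all of them on the deposited scale. In MYC over WT those were CHD3 (0.29), ZNF131 (0.014) and ZNF703 (0.029). In Zab over WT they were CHD4 (-0.11), DAXX (-0.28), DNMT3A (-0.11), TRIM28 (-0.00026), ZNF263 (-0.054), ZNF394 (-0.17), ZNF395 (-0.073), ZNF496 (-0.24), ZNF511 (-0.13), ZNF516 (-0.23), ZNF592 (-0.24), ZNF622 (-0.12), ZNF629 (-0.15), ZNF687 (-0.21) and ZNF703 (-0.065). The deposited scale keeps a factor per library, so all genes shift with it: the median member (and the median gene) stood at -0.74 (-0.62) for Zab over WT, 0.58 (0.46) for MYC over WT, 1.34 (1.08) for MYC over Zab, 0.53 (0.47) for the interaction, 0.32 (0.26) for MYC_Zab over WT, -0.29 (-0.18) for MYC_Zab over MYC and 1.08 (0.87) for MYC_Zab over Zab. There, Zab over WT gave 2 members higher and 114 lower, MYC over WT 109 and 7, MYC over Zab 174 and 2, MYC_Zab over Zab 158 and 0, MYC_Zab over WT 19 higher, MYC_Zab over MYC 61 lower and the interaction 76 higher. With library totals, 15 were higher in Zab over WT and 11 lower in MYC_Zab over Zab, and the median member of MYC_Zab over MYC went from -0.08 to 0.01. edgeR's quasi-likelihood test called 42 lower in MYC_Zab over MYC and 1 higher in MYC_Zab over WT, and DESeq2 47 lower in Zab over WT. Among members counted on 1 transcript, which are fewer, 21 were higher in MYC over WT, 32 lower in Zab over WT, 28 higher in MYC_Zab over Zab, 28 higher and 19 lower in MYC over Zab, and 20 higher in the interaction. When the 2 libraries of WT and those of MYC_Zab were each merged into 1 sample, Zab over WT gave 14 higher and 43 lower, MYC over WT 20 and 12, MYC_Zab over MYC 13 and 15, and MYC_Zab over Zab 11 lower. Except for the fewer genes and samples named, the cause of these moves was not tested.

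Leaving out each library in turn gave for Zab over WT 20 to 29 higher and 52 to 70 lower, for MYC over WT 23 to 47 and 12 to 24, for MYC over Zab 63 to 81 and 19 to 27, for the interaction 38 to 60 and 27 to 35, for MYC_Zab over WT 0 to 1 and 0 to 0, for MYC_Zab over MYC 14 to 30 and 16 to 40, and for MYC_Zab over Zab 56 to 72 and 14 to 24. With the replicate number as a block, Zab over WT gave 29 higher and 74 lower and MYC over WT 39 and 19, and 247 of the 248 called results held. Same-numbered libraries of different groups correlated by only -0.026 to 0.0099 in their deviations. Those deviations were near counting error, which gives such values with or without pairing, so this cannot decide whether the numbers pair the libraries. Depth limits the low members most: tested members had a median of 478 reads over 8 libraries.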
